A study of Mus musculus with 6 samples.

Results

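Mrc1, Cd163, Folr2, Cbr2, Cd209f, Cd209d, Lyve1 and Fcrls mark the CD163+ MRC1+ FOLR2+ type of tissue macrophage, and their mRNA was followed here in macrophages of the peritoneal cavity. The 8 genes were taken from the deposited gene table by symbol, out of 48709 genes listed, and all 8 passed the filter on low counts that left 12940 genes for testing. They were chosen by what the type is known to express and with the levels of these genes in both genotypes already known. Their genotype values are therefore a description, and where members past the threshold of the fit across all genes are counted or named, nothing is supported by it. The cells were freshly isolated, untreated peritoneal macrophages of C57BL/6 mice aged 6 to 8 weeks, sorted by flow cytometry as F4/80+ CD11b+. One group was wild-type and the other Zeb1 (+/-), that is heterozygous for the transcription factor gene Zeb1, with 3 RNA-seq libraries each. Each library held the pooled cells of 2 mice, so its value is an average over a pair of animals. The labels do not describe the targeted allele.

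Macrophages of this type sit in tissues, often beside vessels, and are specialised for taking up material from their surroundings. The mannose receptor MRC1 and the CD209 lectins bind sugars on glycoproteins and microbes. CD163 clears haemoglobin bound to haptoglobin, LYVE1 binds the matrix sugar hyaluronan, and FOLR2 binds folates. CBR2 is an NADPH-dependent carbonyl reductase and FCRLS is a surface protein related to Fc receptors. In the peritoneal cavity the resident majority are GATA6-dependent large macrophages, and a smaller, monocyte-derived population carries more MHC class II.

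ZEB1 is a zinc-finger factor that binds E-box sequences, so the promoters of the members are shown with the letters it is known to prefer. RefSeq promoter windows of the mouse build GRCm38.p6 were matched by symbol for 7 of the 8 members, with 2 starts for Folr2, which made 8 windows. The 250 bases before each start were searched on both strands for CACCTG, the E-box preferred by ZEB1, and for its core CACCT, which lies within every CACCTG. They were also searched for the PU box GAGGAA, bound by the macrophage factor PU.1, and for the MAF half-site TGCTGAC. The 4 windows below belong to Mrc1, which named the set and holds no CACCT, and to 3 genes that do. They read 5′ to 3′ toward the start, and capitals mark each CACCT and GAGGAA or its reverse complement (AGGTG and TTCCTC).
Mrc1, chr2:14229164-14229413, plus strand: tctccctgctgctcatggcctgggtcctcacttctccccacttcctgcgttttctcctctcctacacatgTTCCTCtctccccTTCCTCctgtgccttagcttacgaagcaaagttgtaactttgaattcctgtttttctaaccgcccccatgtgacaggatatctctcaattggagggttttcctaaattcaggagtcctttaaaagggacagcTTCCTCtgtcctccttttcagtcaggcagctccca
Folr2, start within the gene, chr7:101845332-101845581, minus strand: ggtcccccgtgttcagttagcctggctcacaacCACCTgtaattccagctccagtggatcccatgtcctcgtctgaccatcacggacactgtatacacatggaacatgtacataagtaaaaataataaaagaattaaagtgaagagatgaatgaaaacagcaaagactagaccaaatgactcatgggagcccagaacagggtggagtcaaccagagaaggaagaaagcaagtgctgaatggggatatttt
Cbr2, chr11:120732022-120732271, minus strand: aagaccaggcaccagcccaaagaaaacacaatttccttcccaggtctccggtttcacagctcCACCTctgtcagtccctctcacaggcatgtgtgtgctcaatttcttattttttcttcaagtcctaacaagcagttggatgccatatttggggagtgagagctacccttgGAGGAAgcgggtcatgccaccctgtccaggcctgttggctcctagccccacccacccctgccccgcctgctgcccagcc
Cd209f, chr8:4105765-4106014, minus strand: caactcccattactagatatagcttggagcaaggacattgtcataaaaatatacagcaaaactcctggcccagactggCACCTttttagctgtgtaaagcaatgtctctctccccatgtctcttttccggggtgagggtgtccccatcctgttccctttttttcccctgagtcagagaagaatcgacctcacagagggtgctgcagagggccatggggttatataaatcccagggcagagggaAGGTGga
CACCTG was found in 1 of the 8 windows, at the Folr2 start within the gene, 217 to 212 bases before it. The same letters were found in 17.2% of all 32851 promoter windows of that length. CACCT was found in 4 of the 8 windows (Folr2, Cbr2, Cd209f and Cd209d), against 46.0% of all windows. The PU box was found in 4 of 8, with 3 matches at Mrc1 and 1 each at Cbr2, Cd209d and Fcrls, against 23.3% of all. The MAF half-site was found in 0 of 8, against 3.81% of all. None of the 4 sequences was in the Cd163 window or at the other Folr2 start. These are matches of letters in short windows, and binding was not measured.

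Total counts per library ran from 17859872 to 42165006, so that 1 CPM (the usual depth-scaled count) stood for 17.9 to 42.2 counts. Zeb1 itself was at 6.74 ± 1.14 CPM in wild-type libraries and 3.64 ± 0.202 CPM in Zeb1 (+/-) libraries (mean ± SD, n = 3 each). The groups did not overlap, and its edgeR adjusted p was 0.0522. Without wild-type replicate 1 Zeb1 passed the threshold of 0.05 (log2 fold change −1.03, edgeR adjusted p = 0.0317). Among the genes behind the sort, Adgre1 (F4/80) was at 2185 ± 38.6 and 2617 ± 23.8 CPM (edgeR adjusted p = 0.111, DESeq2 adjusted p = 0.0044). Its groups did not overlap, as for 19.9% of all tested genes in either direction. Itgam (CD11b) was at 4846 ± 162 and 5058 ± 343 CPM (edgeR adjusted p = 0.745), and shares 66.3% of its 50-base stretches with the overlapping gene Gm49368. The summed level of small structural RNAs was 4.14 CPM in wild-type replicate 1, 8.69 CPM in wild-type replicate 2 and between 42.2 and 45.5 CPM in the other 4 libraries. A set of 16 B cell markers (the marker list without Cd37, which macrophages also express) summed to 181, 162 and 329 CPM in wild-type libraries and to 133, 117 and 99.7 CPM in Zeb1 (+/-) libraries. Their part in the differences below was not tested beyond the fits that are named. The titles number the libraries of each genotype Set 1 to Set 3, called replicates here, without saying whether equal numbers belong together. Nothing in the labels says more of how the pools were drawn, so an SD describes the spread between these pools.

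Of the members, 7 had a lower level in every heterozygous library than in any wild-type library, and Lyve1 was the exception. The mean in heterozygous libraries was between 31.5% (Cd209f) and 63.9% (Cd209d) of the wild-type mean for these, and 87.8% for Lyve1. All 8 log2 fold changes (heterozygous over wild-type throughout) were below 0, with a median of −1.08, while 50.1% of all tested genes were below 0 with a median of −0.000386. Groups that did not overlap, with heterozygous libraries lower, were found for 10.3% of all tested genes, and groups that did not overlap in either direction for 19.9%. In the edgeR fit across all genes 4 of 8 members passed an adjusted p of 0.05 (Mrc1, Fcrls, Cbr2 and Folr2), while 0.587% of all tested genes passed it in either direction and 0.433% as lower. Because the members were chosen with this contrast in view, these counts describe them and support nothing further. Fewer cells of this type in the sort and less of the RNA per cell cannot be told apart in bulk libraries.

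**Figure D1:**
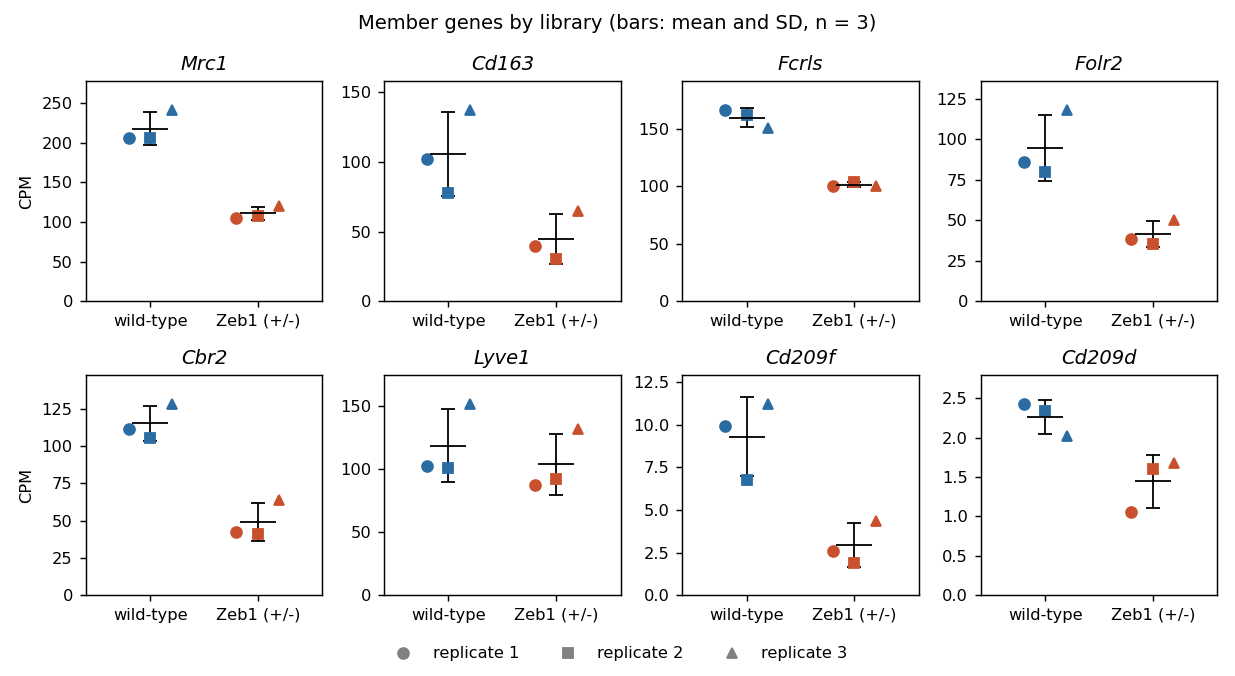
Level of each member gene in CPM (linear axes from 0) in 3 wild-type (blue) and 3 Zeb1 (+/-) (orange) libraries; symbols give the replicate number, horizontal lines the mean and bars the SD. For 7 genes all Zeb1 (+/-) points lie below all wild-type points, whereas for Lyve1 the groups overlap (87.6 to 132 against 101 to 152 CPM).

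Among the lectin receptors, Mrc1 (ENSMUSG00000026712.3, chr2:14229392-14332057, plus strand of GRCm38) encodes the mannose receptor, which internalises mannosylated glycoproteins. It was at 206, 206 and 242 CPM in the wild-type libraries 1, 2 and 3 and at 105, 108 and 120 CPM in heterozygous replicates 1, 2 and 3. The lowest wild-type library stood well above the highest heterozygous library. The CV within wild-type and heterozygous libraries was 9.46% and 7.05%, near the medians of all tested genes (8.46% and 7.95%). The median CV of the 8 members was higher, at 16.1% and 23.3%. The log2 fold change of Mrc1 was −0.97 ± 0.09 (SE). Cd209f (chr8:4102787-4105835, minus strand), 1 of the mouse homologues of the lectin DC-SIGN, was at 9.91, 6.78 and 11.3 CPM in wild-type and 2.57, 1.89 and 4.35 CPM in heterozygous libraries. It had the lowest ratio between genotypes of the 8 genes (log2 fold change −1.66 ± 0.30) and a wide spread within heterozygous libraries, with a CV of 43.4%. Of its 50-base stretches 29.8% also occur in other genes, mainly Cd209g, so the counting could have split reads between the genes. Cd209d (chr8:3871824-3878555, minus strand), another gene of the same family, was at 2.43, 2.34 and 2.02 CPM in wild-type and 1.06, 1.61 and 1.67 CPM in heterozygous libraries. These levels rest on 19 to 81 counts per library, and the gap between the nearest libraries of the groups was small (log2 fold change −0.62 ± 0.22).

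The scavenger receptor gene Cd163 (chr6:124304656-124330527, plus strand) was at 102, 77.4 and 137 CPM in wild-type and at 39.3, 30.4 and 64.9 CPM in heterozygous libraries. The groups did not overlap, but the libraries of each genotype spread widely, with a CV of 28.6% in wild-type and 39.9% in heterozygous libraries. Its log2 fold change of −1.23 ± 0.28 had the same size as that of Cbr2 with a larger error. Lyve1 (chr7:110850607-110863239, minus strand), the hyaluronan receptor, was at 103, 101 and 152 CPM in wild-type and 87.6, 92.4 and 132 CPM in heterozygous libraries. The library highest in heterozygous libraries exceeded 2 wild-type libraries, and the log2 fold change was −0.18 ± 0.19. Its 95% confidence interval ran from −0.61 to 0.24. For Lyve1 the log2 fold change was 0.034 when wild-type replicate 3 was left out.

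Folr2 (chr7:101839988-101857194, minus strand), the folate receptor of macrophages, was at 85.7, 79.9 and 118 CPM in wild-type and 38.3, 35.2 and 50.3 CPM in heterozygous libraries. The heterozygous mean was 43.6% of the wild-type mean, and the log2 fold change was −1.19 ± 0.17. Of its 50-base stretches 52.6% also occur in other genes, mainly Gm10602 on the opposite strand, and the strand setting of the counting was not given in the sources used here. Gm10602 itself had 16 to 37 counts per library, or 1.05 CPM on average in wild-type and 0.829 CPM in heterozygous libraries. Cbr2 (chr11:120729489-120732114, minus strand), the carbonyl reductase, was at 112, 106 and 129 CPM in wild-type and 42.4, 41.1 and 63.7 CPM in heterozygous libraries. All 3 heterozygous libraries were far below the lowest wild-type library (log2 fold change −1.23 ± 0.16). Of its stretches 12.1% occur in Gm11771, which had 1 count in wild-type replicate 1 and 0 in the other libraries. Fcrls (chr3:87250758-87263738, minus strand), the Fc receptor-like gene, was at 166, 162 and 150 CPM in wild-type and 99.8, 104 and 100.5 CPM in heterozygous libraries. It had the tightest replicates of the 8, with a CV of 5.17% and 2.15%, and a modest log2 fold change of −0.65 ± 0.06.

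The number of members past the threshold moved with single libraries. It was 1 of 8 (Mrc1) without wild-type replicate 2, where 0.0378% of all tested genes passed. It was 2 (Mrc1 and Fcrls) without heterozygous replicate 1 (0.212% of all) and 2 (the same genes) without heterozygous replicate 2 (0.0843% of all). Without heterozygous replicate 3 it was 6, with Cd163 and Cd209f added at log2 fold changes of −1.60 and −2.10 (0.972% of all). In a fit with a term for the split in structural RNA, which sets wild-type replicate 3 alone against the heterozygous libraries, 3 members passed (0.24% of all), without Fcrls, and the log2 fold changes ran from −1.94 (Cd209f) to −0.44 (Cd209d). With the mean of the B cell markers as a covariate 0 members passed (0.0309% of all), 6 had an unadjusted p under 0.05 by edgeR, and Lyve1 turned to 0.18. The other 7 stayed between −1.41 (Cd209f) and −0.75 (Fcrls) in that fit. This covariate was the mean log2 CPM of the 16 tested markers, Cd37 included. It was 2.87, 2.74 and 3.70 in wild-type and 2.42, 2.30 and 2.09 in heterozygous libraries. As its groups did not overlap, that fit cannot tell the covariate fully apart from genotype. DESeq2 without the covariate called 5 members (2.71% of all), and limma-voom 5 (0.611% of all), with Cd209f added in both. Scaling by core macrophage genes gave 5, with Cd163 and Cd209f added and Fcrls lost (0.912% of all). Calls under that scaling did not follow the spread of single genes. Cd163 had an edgeR adjusted p of 1.08e-07 there, and Fcrls, with the tightest replicates, 0.0797. Hba-a1, at 41.3 CPM in wild-type replicate 1 and far lower in the other libraries, had 5.94e-12. With no filter on low counts 6 passed, Cd163 and Cd209f added (2.47% of all), and with robust moderation 3, without Folr2 (0.688% of all).

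The order of the members by level was read per kilobase of annotated exon. In wild-type libraries Cbr2 stood highest with 86.8 ± 8.97 CPM per kilobase, followed by Fcrls (68.3 ± 3.53), Folr2 (61.2 ± 13.4) and Lyve1 (40.6 ± 9.94). Mrc1 (34.2 ± 3.23), Cd163 (19.3 ± 5.53), Cd209f (4.68 ± 1.16) and Cd209d (2.46 ± 0.237) came after them. The wild-type ranges of neighbours from Fcrls to Mrc1 overlapped, although within each library Folr2 was above Lyve1 and Lyve1 above Mrc1. The ranges did not overlap for Cbr2 above Fcrls, Mrc1 above Cd163, Cd163 above Cd209f and Cd209f above Cd209d. Among all tested genes the 6 higher members lay between the 84.1 and the 96.6 percentile of this level, with Cd209f at 50.7 and Cd209d at 35.4. In heterozygous libraries Fcrls had the highest mean, 43.4 ± 0.932 CPM per kilobase. It overlapped with Cbr2 (37.0 ± 9.55) and Lyve1 (35.6 ± 8.30). Folr2 (26.7 ± 5.17), whose libraries overlapped with those of Lyve1, Mrc1 (17.4 ± 1.23) and Cd163 (8.21 ± 3.28) followed. Cd209d (1.57 ± 0.366) and Cd209f (1.48 ± 0.640) overlapped at the low end. Seen within each library, Lyve1 counted 0.539 ± 0.0781 of the CPM of Mrc1 in wild-type and 0.930 ± 0.148 in heterozygous libraries, whereas the Folr2 ratio to Mrc1 was 0.431 ± 0.0522 and 0.370 ± 0.0471. The groups overlapped for the Folr2 ratio and not for the Lyve1 ratio.

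**Figure D2:**
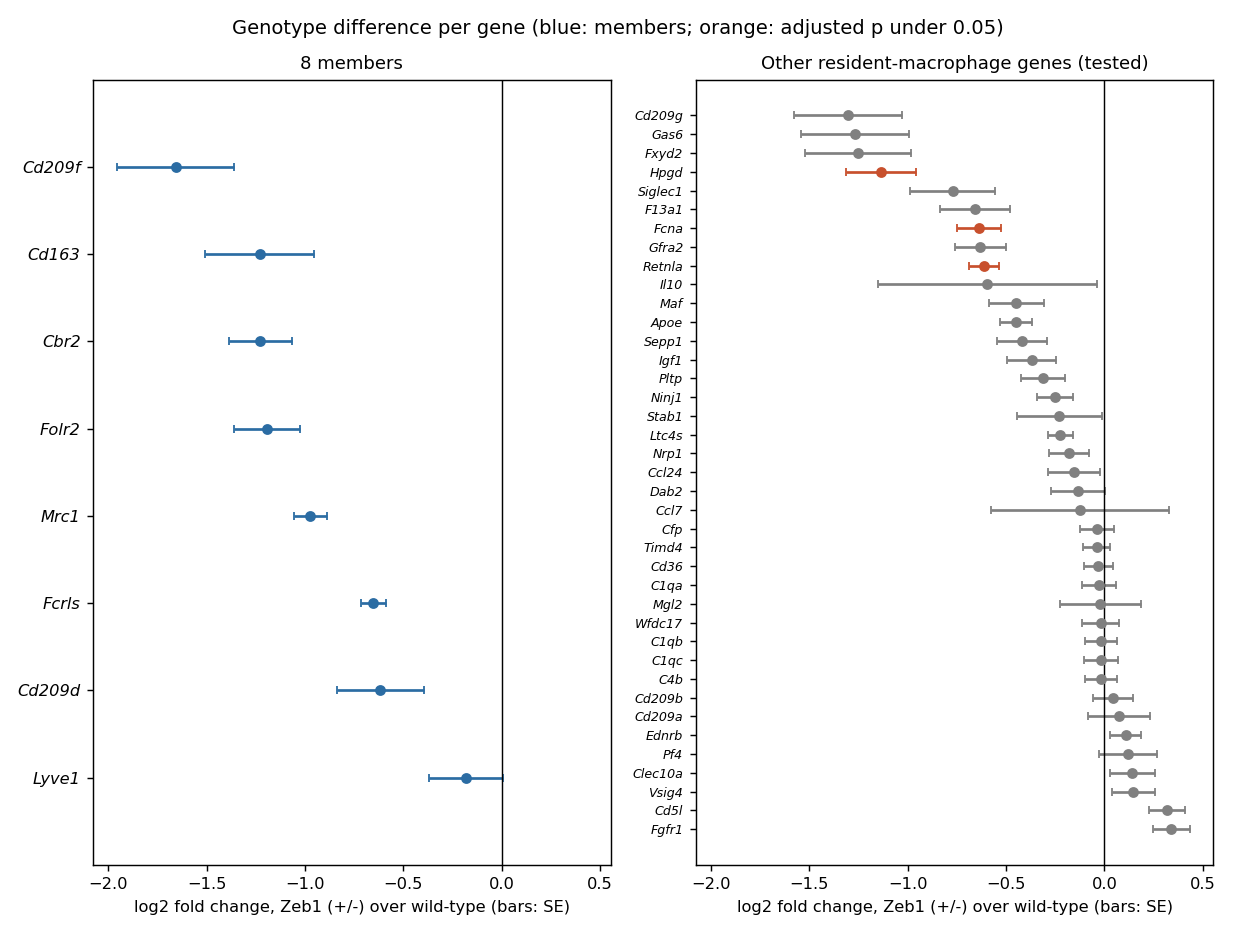
Log2 fold change of Zeb1 (+/-) over wild-type with its SE (bars) for the 8 members (left, blue) and for tested genes of the list of other resident-macrophage genes (right; orange, adjusted p under 0.05; 1 gene of the list is not drawn). The members run from −1.66 (Cd209f) to −0.18 (Lyve1), and most of the other genes lie below 0.

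The libraries of each genotype were compared with their own mean, which leaves the genotype contrast aside. Cd163, Folr2, Cbr2, Cd209f, Lyve1 and Mrc1 were each highest in replicate 3 of both genotypes. Of 10804 tested genes with a mean of at least 2 CPM, 6.13% had that order. Cd163 stood 0.42 above its genotype mean on the log2 scale in wild-type replicate 3 and 0.61 above it in heterozygous replicate 3. Lyve1, whose genotypes overlapped, stood 0.39 and 0.37 above its means in the same libraries. Mrc1 stood 0.15 and 0.11 above. Fcrls was at −0.08 and −0.01 and Cd209d at −0.16 and 0.23, so neither had that order. Wild-type replicate 3 had the highest summed B cell markers of the 6 libraries (329 CPM), and heterozygous replicate 3 the lowest (99.7 CPM). The summed markers of large peritoneal macrophages were lowest of their genotype in both libraries, at 78798 and 86015 CPM. The part of these differences in the order of the members was not tested. Among genes outside this group of 6, the smallest root mean square differences from its mean deviation belonged to Rcn3 (0.0868), Tmem8 (0.0874), Pcdhgc3 (0.0879) and Arg1 (0.0908). These genes were looked up after the pattern had been seen. Arg1, the arginase of alternatively activated macrophages, followed it within genotypes although it had a log2 fold change of 0.89 between them.

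**Figure D3:**
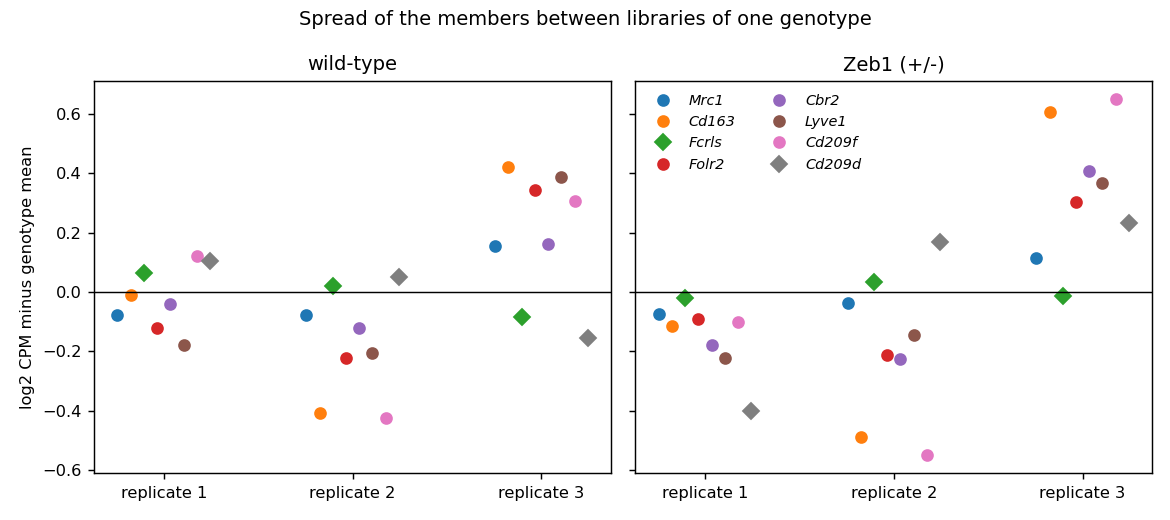
Deviation of each member's log2 CPM from its genotype mean in the libraries of wild-type (left) and Zeb1 (+/-) (right); each point is 1 gene in 1 library, circles for the 6 genes that were highest in replicate 3 and diamonds for Fcrls and Cd209d. The circles lie above 0 in replicate 3 of both genotypes, up to 0.42 in wild-type and 0.65 in Zeb1 (+/-).

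By the smallest root mean square difference from Mrc1 in centred log2 CPM over the 6 libraries, the 6 genes most like it outside the members were Nipal1 (0.101), Aff3 (0.108), Mmp9 (0.114), Cnn3 (0.126), Inf2 (0.126) and Phldb1 (0.128). Nipal1 encodes a magnesium transporter, Aff3 a factor of transcription elongation, Mmp9 a gelatinase and Inf2 a formin of the actin cytoskeleton. Mmp9 was at 32.5, 35.6 and 35.8 CPM in wild-type and 16.2, 18.0 and 22.6 CPM in heterozygous libraries. As the measure contains the step between genotypes, these genes were bound to share it. Of the members, Folr2 came closest to Mrc1 (0.181), followed by Cbr2 (0.207), Fcrls (0.209) and Cd209d (0.275). Among 10910 candidates these ranked 21, 40, 45 and 142. Cd163 (0.357, rank 447), Lyve1 (0.429, rank 1557) and Cd209f (0.510, rank 5479) were farther away, so no member was among the 6 nearest genes. A step between genotypes larger or smaller than that of Mrc1 adds to this distance.

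Genes that work beside each member were counted on lists chosen, like the members, with earlier results known, and 1 of them passed the threshold. For all lists below, the background is the 12940 tested genes. Of these, 815 were higher and 1069 lower at an unadjusted p under 0.05 by edgeR, and DESeq2 called 351 (2.71%). Of the other Cd209 genes, 4 were tested and 0 changed by edgeR (1 at an unadjusted p under 0.05, and DESeq2 called 1). Cd209a and Cd209b were at 69.0 and 72.8 CPM and at 50.3 and 51.6 CPM, with log2 fold changes of 0.07 and 0.04. Cd209g, which shares sequence with Cd209f, was at 3.60, 2.95 and 3.56 CPM in wild-type and 1.23, 0.921 and 1.95 CPM in heterozygous libraries. Its groups did not overlap, and its log2 fold change of −1.30 ± 0.27 had an edgeR adjusted p of 0.0849. The other mannose receptor family genes had group means of at most 1.74 CPM, with 2 tested and 0 changed (0 at an unadjusted p under 0.05 and 0 by DESeq2). Pla2r1, the phospholipase A2 receptor, had the smaller p of these (log2 fold change −0.49, edgeR adjusted p = 0.503).

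Around CD163, 11 genes of haemoglobin and haem uptake and breakdown were tested and 0 changed by edgeR, with 2 at an unadjusted p under 0.05 and 1 called by DESeq2. Marco, a scavenger receptor, had the smallest p of these, with 464 ± 81.2 and 260 ± 80.4 CPM (log2 fold change −0.84 ± 0.21, edgeR adjusted p = 0.134). Hmox1, the haem oxygenase downstream of haem uptake, was at 154 ± 22.9 and 122 ± 27.2 CPM with overlapping groups (log2 fold change −0.33, edgeR adjusted p = 0.366). The ferritin genes Fth1 and Ftl1 had log2 fold changes of −0.10 and −0.06. Around FOLR2, 16 folate genes were tested and 0 changed by edgeR, with 7 at an unadjusted p under 0.05 and 2 called by DESeq2. Of these 13 lay above 0, with a median log2 fold change of 0.20. Atic, an enzyme of purine synthesis that uses a folate, was at 61.8 and 76.1 CPM (log2 fold change 0.30, edgeR adjusted p = 0.0895).

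Around LYVE1, 6 hyaluronan genes were tested and 0 changed by edgeR (0 at an unadjusted p under 0.05 and 0 by DESeq2). Hyal1, a hyaluronidase, had the smallest p (log2 fold change −0.47, edgeR adjusted p = 0.401), and 49.7% of its stretches occur in other genes, mainly Naa80. Stab1, another hyaluronan receptor, was at 282 ± 46.9 and 241 ± 84.7 CPM with overlapping groups. Of 8 other carbonyl reductase genes 0 changed by edgeR (0 at an unadjusted p under 0.05 and 0 by DESeq2), the smallest p being that of Dhrs4 (log2 fold change −0.18, edgeR adjusted p = 0.375). Cbr1 was at 14.4 and 14.5 CPM. Of 9 tested Fc receptor-like and IgG Fc receptor genes 1 fell, Fcgrt, the neonatal Fc receptor that recycles IgG. It went from 319 ± 14.6 to 228 ± 22.0 CPM (log2 fold change −0.49 ± 0.08, edgeR adjusted p = 0.0440). The call for Fcgrt was kept without heterozygous replicate 3 and lost without any other single library, with log2 fold changes of −0.52 to −0.43. Fcgr1 and Fcgr3, which bind IgG at the surface, had log2 fold changes of 0.10 and 0.06 and were the only 2 of the 9 above 0. The other 7 were below 0, and the list median was −0.20. Of the 9, 4 were lower at an unadjusted p under 0.05 by edgeR and 1 was called by DESeq2. The 1 edgeR call is 11.1% of this list against 0.587% of all tested genes. All 16 tested B cell markers were below 0 too, and which cells held the RNA of this list was not tested.

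Of the other genes known from this type of macrophage, 40 were tested, 3 fell, 0 rose and 37 did not pass by edgeR. That is 7.5% of the list against 0.587% of all tested genes, and 80.0% of the list were below 0 against 50.1% of all, with a median of −0.15. The list holds Retnla and Hpgd, which were known to be lower when it was written. The level of Retnla, a small secreted protein induced by IL-4, fell from 1135 ± 60.5 to 743 ± 52.7 CPM (edgeR adjusted p = 0.0186). Fcna, the secreted lectin ficolin A, fell from 1178 ± 141 to 757 ± 89.5 CPM (log2 fold change −0.64 ± 0.11, edgeR adjusted p = 0.0482). Hpgd, which breaks down prostaglandins, fell from 4.09 ± 0.492 to 1.86 ± 0.258 CPM (log2 fold change −1.13 ± 0.18, edgeR adjusted p = 0.0328). All 3 genes missed the threshold when wild-type replicate 2 was left out, and likewise for heterozygous replicate 2. Fcna and Hpgd also missed it when replicate 1 of either genotype was left out, as did Fcna when wild-type replicate 3 was. The log2 fold changes of these genes in those fits lay between −1.14 and −0.54. Gas6, a bridge to apoptotic cells, was at 9.31, 9.08 and 16.8 CPM in wild-type and 3.68, 4.20 and 6.36 CPM in heterozygous libraries, with an edgeR adjusted p of 0.0889. Timd4, a receptor for apoptotic cells and a mark of long-lived resident macrophages, was at 910 ± 14.0 and 885 ± 57.7 CPM. The complement genes C1qa, C1qb, C1qc and C4b had log2 fold changes between −0.03 and −0.02.

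**Figure D4:**
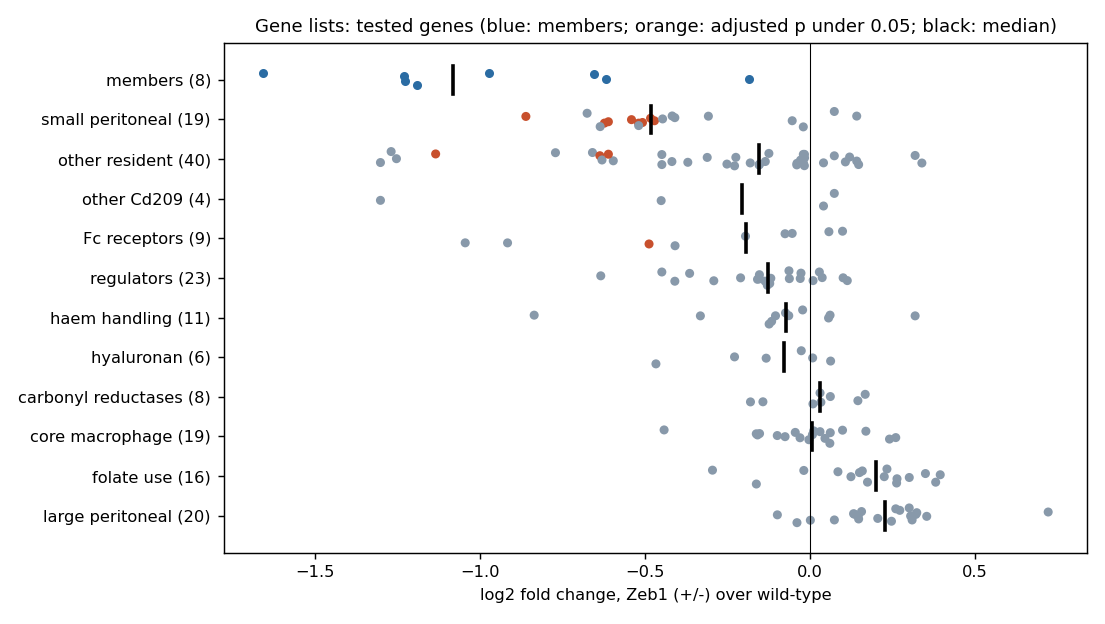
Log2 fold change of Zeb1 (+/-) over wild-type for the tested genes of the members (blue) and of 11 gene lists, with the number tested in brackets; each point is a gene, orange points passed an adjusted p of 0.05 and black bars are medians. The medians run from −1.08 for the members and −0.48 for small peritoneal macrophages to 0.23 for large peritoneal macrophages.

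The markers of the other cavity macrophages were set beside these. Of 19 tested genes of small peritoneal macrophages 8 fell and 0 rose, with a median log2 fold change of −0.48. That is 42.1% of the list against 0.433% of all tested genes called as lower. The list was chosen with earlier results known. Retnla, among the 8, is also counted above with the other resident genes, so the counts of the lists are not separate. Ccr2, the receptor that draws in monocytes, fell from 266 ± 11.2 to 173 ± 7.69 CPM (edgeR adjusted p = 0.00897), and H2-Eb1, an MHC class II chain, from 608 ± 23.8 to 418 ± 19.4 CPM (edgeR adjusted p = 0.0185). Both genes missed the threshold when replicate 2 of either genotype was left out, at log2 fold changes of −0.61 to −0.52. They also missed it with core scaling, the structural-RNA split, the B cell covariate and the replicate number as a block (−0.68 to −0.50). All 16 tested B cell markers were below 0 as well. The part of B cell RNA in this list was not tested beyond the fit with the covariate. Of 20 tested genes of large peritoneal macrophages 0 changed by edgeR, with 9 higher at an unadjusted p under 0.05 and 6 called higher by DESeq2, and 18 of 20 were above 0. Of all 12940 tested genes, 815 were higher at an unadjusted p under 0.05 by edgeR and 109 were called higher by DESeq2. Itga6, an integrin of these cells, was at 1753 ± 77.3 and 2241 ± 99.0 CPM (log2 fold change 0.35 ± 0.07, edgeR adjusted p = 0.0689). Of 19 core macrophage genes 0 changed by edgeR (3 at an unadjusted p under 0.05, 1 by DESeq2), with a median of 0.00768, and Adgre1 had the smallest p. Divided by Adgre1 within each library, Mrc1 was at 0.0996 ± 0.00762 in wild-type and 0.0424 ± 0.00323 in heterozygous libraries, and Lyve1 at 0.0540 ± 0.0122 and 0.0397 ± 0.00947. Adgre1 itself was higher in every heterozygous library than in any wild-type library (log2 fold change 0.26). Division by it therefore widens the gap between genotypes.

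Of 23 tested transcription factors and receptors tied to macrophage identity 0 changed by edgeR, with 7 lower at an unadjusted p under 0.05 and 1 called by DESeq2. Maf, a factor of resident macrophages, was at 139, 141 and 146 CPM in wild-type and 88.1, 91.5 and 133 CPM in heterozygous libraries. The heterozygous replicate 3, in which most members were highest, stood near the wild-type libraries (log2 fold change −0.45 ± 0.14, edgeR adjusted p = 0.198). Without that library Maf was at −0.66 and passed (edgeR adjusted p = 0.0115). Il4ra, the receptor chain for IL-4, had a log2 fold change of −0.03, and Il10ra, that for IL-10, of −0.21 (edgeR adjusted p = 0.288). Zeb2, the paralogue of Zeb1, was at 557 ± 0.720 and 513 ± 30.9 CPM (log2 fold change −0.12, edgeR adjusted p = 0.445).

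Markers of other cells that the gate could hold were counted in the same fit. Of 16 tested B cell markers 0 passed by edgeR (13 at an unadjusted p under 0.05, 8 called lower by DESeq2), all 16 were below 0, and Blk had the smallest p (log2 fold change −1.09, edgeR adjusted p = 0.0895). In wild-type libraries the B cell sum was highest in replicate 3, as were 6 of the 8 members. In heterozygous libraries it was lowest in replicate 3, where 7 of the 8 members were highest. The part of B cell RNA in the members' differences was not tested beyond the fit with the covariate, which cannot tell the covariate fully apart from genotype. Of 5 tested T and NK cell markers 1 fell, Cd2, from 16.3 ± 1.08 to 10.5 ± 0.672 CPM (edgeR adjusted p = 0.0246). Cd2 missed the threshold when replicate 1 or 2 of either genotype was left out, at log2 fold changes of −0.67 to −0.57. Cd2 made up most of the summed level of that list, which averaged 19.9 CPM in wild-type and 13.4 CPM in heterozygous libraries. Cd3e was at or under 0.335 CPM in all libraries, and which cells held the Cd2 RNA was not tested. Of 7 tested dendritic cell markers 0 passed by edgeR (4 at an unadjusted p under 0.05, 2 by DESeq2), with a summed level of 27.8 to 33.5 CPM in wild-type and 19.0 to 23.5 CPM in heterozygous libraries, and Batf3 had the smallest p (log2 fold change −0.61, edgeR adjusted p = 0.102). Batf3 passed without wild-type replicate 3 (log2 fold change −0.75, edgeR adjusted p = 0.0338). Lyve1 is also carried by lymphatic endothelium, whose 10 markers, with those of blood endothelium, summed to 7.63 to 10.8 CPM in wild-type and 6.64 to 8.71 CPM in heterozygous libraries. Of these 3 were tested and 0 passed by edgeR (0 at an unadjusted p under 0.05, 0 by DESeq2), the smallest p being that of Flt4 (log2 fold change −0.64, edgeR adjusted p = 0.376). Pdpn was at or under 0.0531 CPM, and Prox1 was between 3.38 and 5.47 CPM.

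Few marker reads came from the remaining types, apart from erythroid and platelet markers in wild-type replicate 1. Neutrophil markers summed to between 1.31 and 2.97 CPM in the 6 libraries, those of eosinophils and mast cells to between 3.54 and 7.91 CPM, and those of mesothelium and fibroblasts to between 0.335 and 1.70 CPM. Epx had 0 counts in all libraries and Ly6g in 5 of 6. Of 2 tested neutrophil and 7 tested eosinophil and mast cell markers 0 passed by edgeR (0 and 2 at an unadjusted p under 0.05, 0 and 0 by DESeq2), with Elane and Ccr3 having the smallest p (log2 fold changes 0.52 and 1.22, edgeR adjusted p = 0.788 and 0.151). Erythroid and platelet markers summed to 214 CPM in wild-type replicate 1 and to between 3.52 and 48.9 CPM in the other 5 libraries. Of 5 tested 0 passed by edgeR (1 at an unadjusted p under 0.05, 0 by DESeq2), the smallest p being that of Hba-a1 (log2 fold change −1.83, edgeR adjusted p = 0.317).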

How the data were processed

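The authors deposited estimated counts per gene, with 1 column per library. The submitters' processing notes name STAR, RSEM, edgeR and GRCm38 without saying what each did. Per the labels' protocols, total RNA was isolated by RNAzol and a stranded TruSeq mRNA kit was used. All deposited values were whole numbers. The sources used here do not give the strand setting or the annotation. Columns were mapped by the identifier in each sample's description (0 unmapped). Genes with a repeated symbol were named by identifier, except for the copy with the most counts (122 cases).

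Genotype was tested in R 4.3.3 with the quasi-likelihood method of edgeR 4.0.16 on all 6 libraries, with TMM scaling, filterByExpr (minimum count 10, total 15), Benjamini-Hochberg adjustment over 12940 genes and a threshold of 0.05. The SE is the log2 fold change divided by the root of F. Log2 CPM used a prior count of 0.5. Alternatives used DESeq2 1.42.0 and limma 3.58.1. Exon lengths, coordinates and overlaps come from GENCODE M21 on GRCm38 (99.3% of identifiers matched), and promoters from RefSeq on GRCm38.p6. In 5 simulated sets with 12805 genes left after the filter, the fit recovered 85.8% of 2-fold and 66.7% of 1.5-fold changes. The counts of these sets were drawn from the dispersion trend alone, without the extra spread of single genes or effects of single libraries. These shares can therefore be higher than those in the real libraries.

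The members and all lists were chosen with earlier results of these data known. The genes named are the members, Zeb1, Adgre1 and Itgam. Each list adds its genes past the threshold (at most 6, otherwise the 4 smallest p) or, with none, the gene of smallest p. The 6 genes most like Mrc1 with at least 2 CPM in either genotype complete them. Other genes are examples of their list, chosen after their values were seen. The values of 1 listed gene are not reported here.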

Additional observations from a re-analysis of the deposited data

How the results depend on the processing

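The members kept their direction in all 16 other settings, except Lyve1, which turned from −0.18 to 0.18 with the B cell covariate and to 0.034 without wild-type replicate 3 (−0.39 to 0.034 with 1 library left out). Flt4 turned from −0.64 to 0.10 with the B cell covariate. Against 20 genes higher and 56 lower, there were 4 and 0 with the B cell covariate (741 and 1024 at an unadjusted p under 0.05 by edgeR), 4 and 27 with the structural-RNA split, 109 and 242 by DESeq2, and 207 and 315 with no filter on low counts. Scaling by core macrophage genes gave 41 higher, with calls that did not follow the spread of single genes. With 1 library left out there were 4 to 36 higher and 1 to 91 lower. Past the threshold were 4 members, 0 with the B cell covariate, 3 with the split or robust moderation, 5 with core scaling, 6 with no filter and 1 to 6 with 1 library left out. Of the other resident genes 3 passed, against 0 with the B cell covariate (11 at an unadjusted p under 0.05), 1 with the split, 12 by DESeq2, 16 with no filter, 5 with scaling by core macrophage genes and 0 to 7 with 1 library left out. These are not always the same genes: with the split Retnla, Hpgd and Fcna all missed the threshold, and with core scaling Retnla and Fcna did. Same-numbered libraries of the genotypes did not deviate together (Pearson correlations across genes of −0.197, −0.0305 and −0.132), and none correlated best with its own number. With the replicate number as a block 6 genes were higher and 9 lower, and 1 of the other resident genes passed, which was none of Retnla, Hpgd and Fcna. Under the block 5 members passed, with Cd163 and Cd209f added and Fcrls lost. Ccr2, H2-Eb1, Fcgrt and Cd2 missed the threshold under the block, and also with core scaling, the split and the B cell covariate. Cd209d rests on 19 to 81 counts per library, the fewest of the members. The allele, the share of this cell type in each sort and the strand of counting were not measured here.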
